A study of Mus musculus with 2 samples.

Results

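Vitamin A acts on cells mostly as retinoic acid, and 9 genes that make it, remove it, bind it or respond to it are described here in nuclei of the postnatal mouse cochlea. They were found by their symbols in the feature list, where each of the 9 matched 1 of 33696 gene rows. The synthesis enzymes were Aldh1a1 (ENSMUSG00000053279, chromosome 19), Aldh1a2 (ENSMUSG00000013584, chromosome 9) and Aldh1a3 (ENSMUSG00000015134, chromosome 7). The breakdown enzymes were Cyp26a1 (ENSMUSG00000024987, chromosome 19) and Cyp26b1 (ENSMUSG00000063415, chromosome 6), and the cytoplasmic binding protein was Crabp1 (ENSMUSG00000032291, chromosome 9). The receptors were Rara (ENSMUSG00000037992, chromosome 11), Rarb (ENSMUSG00000017491, chromosome 14) and Rarg (ENSMUSG00000001288, chromosome 15).

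The 2 samples were single-nucleus RNA libraries, 1 per group. The Serpine2 cOE library came from 20 pooled cochleae of Lgr5EGFP-CreER/+,Serpine2loxp/loxp mice and the control library from 19 pooled cochleae of Serpine2loxp/loxp mice. Both groups carried loxP-flanked Serpine2 on both alleles, received tamoxifen at postnatal day 1 and were taken at day 7. The name cOE is the labels' own, and they name no overexpression construct. The CreER driver sits at Lgr5, a gene known from cochlear supporting cells, and only the cOE mice carried it, so the driver allele and any recombination of Serpine2 cannot be told apart. The tissue was labelled as cochlear basement membranes with hair and supporting cells. Mesenchyme, tympanic border cells, roof epithelium, macrophages and neurons were also found by their markers.

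The cOE library had 12014 barcodes and 40429121 UMIs (unique molecular identifiers, which count RNA molecules), and the control library 9820 barcodes and 31158971 UMIs. After filtering, 9777 cOE and 8250 control nuclei remained, with medians of 2401 UMIs in cOE and 2247 in control. The libraries shared 27 barcodes, of which 15 were kept in both. Serpine2 itself stood at 86.0 CPM (UMIs scaled to one common total) in cOE and 88.9 CPM in control over all kept nuclei, a log2 ratio of cOE over control of -0.05 (-0.13 to 0.03). It stood at 244 CPM in cOE and 195 CPM in control pillar and Deiters cell nuclei, with a log2 ratio of 0.32 (-0.06 to 0.71). Cluster 14, shallow nuclei led by Actb and ribosomal protein genes, held 1.13% of cOE and 9.75% of control nuclei. With 1 library per group no difference has a replicate check, no p-value was computed, and every interval below is a 95% interval of counting error only.

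Retinol dehydrogenases such as Rdh10 turn retinol into retinal, and the Aldh1a enzymes oxidise retinal to retinoic acid. Cyp26 enzymes oxidise retinoic acid to inactive products, so tissues that express them are shielded from it. Retinoic acid binds the receptors Rara, Rarb and Rarg, which pair with an RXR receptor on direct repeats in DNA and recruit coactivators in place of corepressors. In the developing inner ear retinoic acid is known to take part in patterning the otocyst and in hair cell formation.

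Levels were compared across 9 classes of nuclei gated by other marker genes, never by the 9 genes themselves or by other retinoic acid genes. A marker counted in a nucleus with a UMI and at least 3 times the level expected from the mean of all nuclei. A class needed at least 3 of its own markers, at most 2 of any other class and a lead of 2. This placed 6385 of 18027 nuclei, with 312 cOE and 270 control hair cell nuclei, 111 cOE and 74 control pillar and Deiters cell nuclei, and 598 cOE and 266 control nuclei of the Koelliker organ, the transient epithelium medial to the hair cells. There were 56 cOE and 51 control lateral epithelium nuclei, 480 cOE and 265 control nuclei of the roof epithelium, 1452 cOE and 1370 control nuclei of the mesenchyme, and 353 cOE and 281 control nuclei of tympanic border cells, which lie under the basilar membrane. Macrophages numbered 108 in cOE and 156 in control, and neurons 47 in cOE and 14 in control. The CPM of a gene in a class is its share of all UMIs of that class in that library, so it does not depend on how many nuclei the class has. All nuclei, gated or not, were also placed in 27 clusters made without the 9 genes and the 52 other pathway genes listed below. Background from free RNA was read in the 219 macrophage-gated nuclei that also fell in the macrophage cluster, cluster 21. Other macrophage-gated nuclei lay in clusters of deep nuclei, 30 of them in cluster 2, a roof epithelium cluster.

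The 3 synthesis enzymes had their highest levels in 3 different classes. Aldh1a1 was highest in tympanic border cells, Aldh1a2 in mesenchyme and Aldh1a3 in neurons, and in each case the interval of the highest class was separate from that of the next class in both libraries.

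Aldh1a1 stood at 340 CPM in cOE (interval 303 to 381) and 311 CPM in control (273 to 354) tympanic border cells, from 300 cOE and 235 control UMIs. The libraries did not separate there, with a log2 ratio of cOE over control of 0.13 (-0.12 to 0.38), which turned to -0.28 under a stricter gate. With both libraries summed, lateral epithelium came next at 203 CPM in cOE nuclei and 82.0 CPM in control nuclei, then pillar and Deiters cells at 146 in cOE and 110 CPM in control and the Koelliker organ at 92.5 in cOE and 107 CPM in control. In control alone the lateral epithelium was below both. Hair cells had 44.2 CPM in cOE nuclei and 47.0 CPM in control nuclei. With every nucleus thinned to 1000 UMIs, 28.7% of cOE and 28.0% of control tympanic border cell nuclei had an Aldh1a1 UMI. The matching shares were 1.93% of cOE and 3.19% of control hair cell nuclei, and 5.56% of cOE and 0% of control background macrophages (0 of 113 nuclei, which allows up to 2.65%). Median depths before thinning were 2222 UMIs in cOE and 2212 in control tympanic border cells, and 1616 in cOE and 1554.5 in control background macrophages. The hair cell share was below the background share in cOE and above it in control, where the hair cell level (38.0 to 57.4 CPM) was also separate from the background level of 4.85 CPM (0.12 to 27.0).

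Among clusters Aldh1a1 was highest in one that carried no class name. Cluster 1, led by Trdn, Rspo2 and Otoa, stood at 517 CPM in cOE nuclei and 526 CPM in control nuclei. Otoa and Rspo2 are on the marker list of interdental cells, which secrete the tectorial membrane, but the cluster did not meet the rule for a name. It held 293 cOE nuclei and 78 control nuclei. Cluster 15, led by Syt6 and Car10, had 310 CPM in cOE nuclei and 235 CPM in control nuclei. Cluster 12 and cluster 10, both with tympanic border cell markers, had 235 CPM (cluster 12) and 228 CPM (cluster 10) in cOE, against 251 and 212 CPM in control.

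Among classes with at least 20 UMIs, the largest library difference of Aldh1a1 was in the lateral epithelium, from 51 cOE UMIs and 20 control UMIs, with a log2 ratio of 1.31 (0.54 to 2.13). Of the 2 genes so measured in that class, Aldh1a1 was the 1 with an interval above 0, and 5.56% of all genes measured there had one. The 443 nuclei of lateral epithelium-like cluster 0 gave 265 CPM in cOE nuclei and 130 CPM in control nuclei, a log2 ratio of 1.03 (0.70 to 1.37) from 318 cOE and 98 control UMIs. In the gated nuclei, summed markers of hair cells were at 271 CPM in cOE nuclei and 139 CPM in control nuclei, and those of neurons at 223 in cOE and 77.9 CPM in control. The interdental list was at 295 in cOE and 275 CPM in control. Their part in the Aldh1a1 difference was not tested. Over the 12 alternatives the log2 ratio in the gated nuclei ran between 0.76, with at least 1000 genes per nucleus, and 2.34, with thinning. Aldh1a7, a close relative on the same chromosome whose reads may be assigned to either gene, stood in tympanic border cells at 78.3 CPM in cOE nuclei and 130 CPM in control nuclei. Its level in the lateral epithelium was 0 UMIs in cOE and 1 UMI in control, so Aldh1a1 is uncertain chiefly in tympanic border cells.

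Aldh1a2 in mesenchyme stood at 260 CPM in cOE (243 to 278) and 221 CPM in control (205 to 238), from 870 cOE and 692 control UMIs, with a log2 ratio of 0.24 (0.09 to 0.38). With both libraries summed, tympanic border cells followed at 79.4 CPM in cOE nuclei and 56.9 CPM in control nuclei, although in control all macrophage-gated nuclei were higher at 67.7 CPM, and hair cells had 21.5 in cOE and 25.7 CPM in control. Background macrophages had 44.3 in cOE and 9.70 CPM in control from 8 cOE and 2 control UMIs, and the intervals of these macrophages overlapped those of hair cells in cOE and in control. After thinning, 18.3% of cOE and 17.4% of control mesenchyme nuclei had an Aldh1a2 UMI. Mesenchyme-like cluster 16, led by Col6a6, held 16.3% of all nuclei and 56.0% of all Aldh1a2 UMIs, at 416 CPM in cOE nuclei and 352 CPM in control nuclei. Aldh1a2 was among the leading genes of that cluster although it took no part in the clustering. Of the mesenchyme-gated nuclei 1403 lay in cluster 16 and 447 in cluster 9. Cluster 9, led by Opcml, had 87.1 CPM in cOE nuclei and 48.3 CPM in control nuclei, with a log2 ratio of 0.85 (0.55 to 1.15). The library difference in mesenchyme shrank to 0.02 when nuclei were thinned, and was 0.21 without the nucleus with most UMIs in each library, which in cOE held 28.

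Aldh1a3 stood in neurons at 166 CPM in cOE (127 to 212) and 160 CPM in control (87.2 to 268), from 63 cOE and 14 control UMIs. The log2 ratio of 0.05 (-0.80 to 1.00) left a wide range. Mesenchyme was far below, at 10.5 CPM in cOE nuclei and 9.89 CPM in control nuclei, and lateral epithelium nuclei were at 19.9 in cOE and 4.10 CPM in control. Neuron-like cluster 19 held 0.322% of the nuclei and 21.9% of all Aldh1a3 UMIs. Over all kept nuclei Aldh1a3 was at 7.35 CPM in cOE nuclei and 5.11 CPM in control nuclei (0.52, 0.22 to 0.84). Cluster 19 held 48 cOE nuclei and 10 control nuclei, and the ratio within clusters was 0.32.

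**Figure D1:**
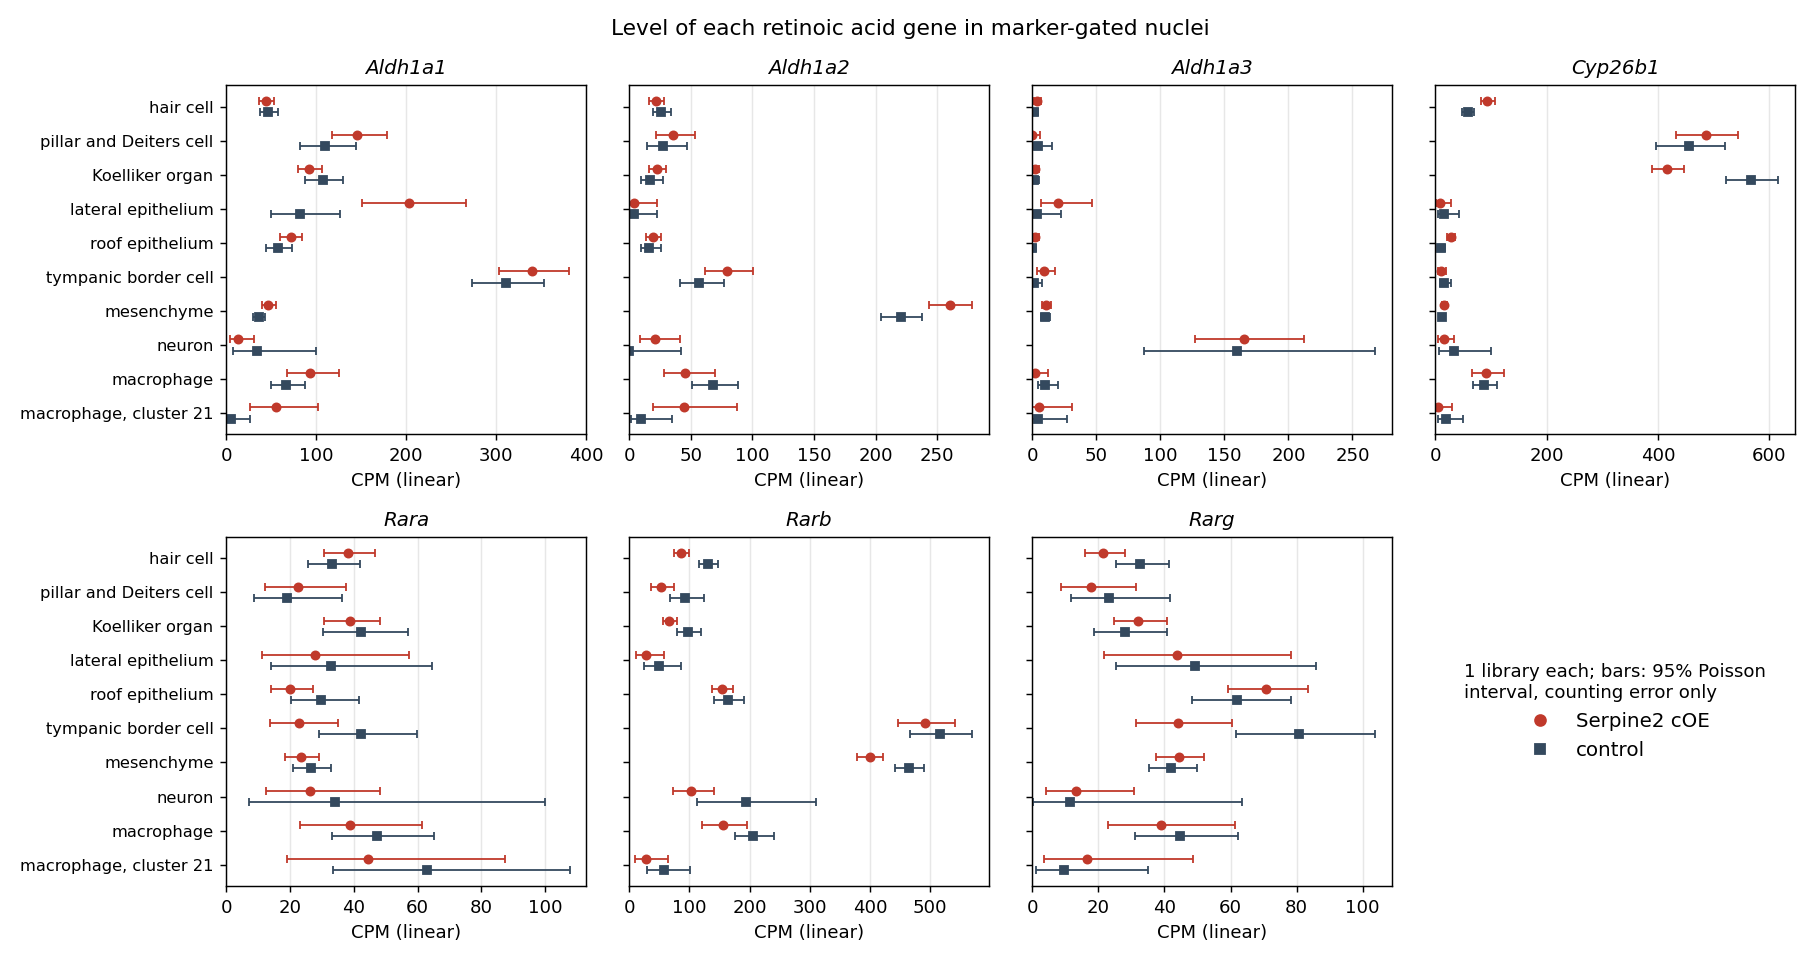
Level of the 7 measured genes (CPM, linear axis) in each gated class and in the background macrophages of cluster 21, with Serpine2 cOE as circles above control as squares and bars for the 95% Poisson interval. Each Aldh1a gene has its highest class to itself, Cyp26b1 stands above 400 CPM only in pillar and Deiters cells and the Koelliker organ, and Rarb is highest in tympanic border cells and mesenchyme.

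Breakdown of retinoic acid was represented by Cyp26b1. It stood at 486 CPM in cOE (433 to 544) and 456 CPM in control (397 to 521) pillar and Deiters cells, the supporting cells around the hair cells, from 303 cOE and 215 control UMIs. In the Koelliker organ it stood at 417 CPM in cOE (390 to 446) and 567 CPM in control (521 to 616), from 861 cOE and 565 control UMIs. These neighbours in the order overlapped in at least 1 library. The next class with both libraries summed, macrophages, was far lower at 90.7 in cOE and 86.9 CPM in control, while in cOE alone hair cells came next at 93.7 CPM. Background macrophages had 5.54 in cOE and 19.4 CPM in control. Mesenchyme had 15.6 CPM in cOE nuclei and 11.8 CPM in control nuclei, tympanic border cells 10.2 in cOE and 15.9 CPM in control.

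Cyp26b1 differed between clusters that carried the same class name. Of the 2 Koelliker organ-like clusters, cluster 4, led by Ano1 and Pla2r1, stood at 457 CPM in cOE nuclei and 570 CPM in control nuclei, and cluster 5, led by Kcnq5 and P4ha2, at 19.5 in cOE and 32.1 CPM in control. Cluster 4 held 41.5% of all Cyp26b1 UMIs. Of the 3 clusters with pillar and Deiters cell markers, cluster 20, with Cep41 and Fgfr3 among its leading genes, stood at 1221 CPM in cOE nuclei and 1258 CPM in control nuclei. Cluster 22, with Prox1 and Lgr5 among its leading genes, stood at 163 in cOE and 301 CPM in control, and cluster 6, led by Mansc4 among others, at 82.5 in cOE and 149 CPM in control. Cluster 24, led by Pla2g3 and Gria4 and not named, had 557 in cOE and 563 CPM in control. The clusters were made without Cyp26b1, so these steps between clusters were not built in.

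The Cyp26b1 UMIs were also uneven between single nuclei. In the Koelliker organ 33.8% of cOE and 40.6% of control nuclei had a UMI, and those that did held on average 4.26 UMIs in cOE and 5.23 in control. Thinned to equal depth the shares were 22.8% in cOE and 28.2% in control, against 0% of 90 cOE (which allows up to 3.33%) and 2.65% of control background macrophages. Before thinning, the 10% of nuclei with most UMIs held 63.4% of the Cyp26b1 UMIs in cOE and 61.6% in control. The same share was 42.0% in cOE and 40.1% in control for Rarb in mesenchyme. It was 60.5% and 58.8% for Aldh1a2 in mesenchyme, and 83.3% and 67.6% for the sparse Rara in macrophages. The Koelliker organ class took in 627 nuclei of cluster 4 and 154 of cluster 5, and their part in the unevenness was not tested. In the thinned nuclei the variance of Cyp26b1 UMIs per nucleus was 2.41 times the mean in cOE and 2.28 times in control, against 1.22 in cOE and 1.19 in control for Rarb in mesenchyme, where a value of 1 is counting noise.

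Within the Koelliker organ Cyp26b1 was lower in cOE, with a log2 ratio of -0.44 (-0.60 to -0.29). A single control nucleus carried 79 of the 565 control UMIs. Leaving out the top nucleus of both libraries gave -0.37. Cluster 4 gave -0.32 (-0.44 to -0.20), and over the 12 alternatives the class value ran between -0.49 and -0.27. Lgr5 differed in the same nuclei, at 92.5 CPM in cOE nuclei and 157 CPM in control nuclei, and the summed Koelliker organ markers were at 11034 in cOE and 12547 CPM in control. The part of such shifts in the Cyp26b1 difference was not tested. Pillar and Deiters cells showed no separation, at 0.09 (-0.16 to 0.35), and their clusters went the other way where a difference could be read, with -0.88 (-1.41 to -0.36) in cluster 22.

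Hair cells had 93.7 CPM of Cyp26b1 in cOE and 58.3 CPM in control, a log2 ratio of 0.68 (0.36 to 1.02). The value varied widely between settings, and the cause was not tested. It was 0.09 with each nucleus weighted equally, 0.09 without nuclei of over 10000 UMIs, a setting chosen after seeing the data, 0.26 in hair cell-like clusters and 1.18 on thinning. Koelliker organ markers in the same hair cell nuclei summed to 1942 CPM in cOE nuclei and 1527 CPM in control nuclei, and their part was not tested. In the roof epithelium Cyp26b1 was at 27.6 CPM in cOE nuclei and 9.88 CPM in control nuclei, from 54 cOE and 11 control UMIs (1.48, 0.53 to 2.57), with Koelliker organ markers at 1562 in cOE and 1231 CPM in control, a link that was not tested. In the roof epithelium-like clusters 2, 18 and 23 pooled, the Cyp26b1 ratio was -0.12. Cluster 2, deep nuclei with 46 of the 745 roof-gated nuclei, alone had 442 cOE and 390 control UMIs (0.13, -0.07 to 0.33). The -0.12 is therefore not a second reading of the gated nuclei. In both gated classes Cyp26b1 was the 1 gene with an interval above 0, of 6 measured in each. The share over all genes was 8.53% in hair cells and 6.99% in the roof epithelium.

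Over all kept nuclei Cyp26b1 was at 108 CPM in cOE nuclei and 94.4 CPM in control nuclei (0.20, 0.13 to 0.27), but the ratio within clusters was -0.08. Cluster 4, where the gene is high, made up 9.73% of cOE nuclei and 4.68% of control nuclei. The part of this make-up in the pooled level was not tested. Thinning raised the pooled ratio to 0.43.

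Cyp26a1 had 10 UMIs in cOE and 3 in control among all kept nuclei, and Crabp1 had 3 in cOE and 7 in control. With 32799620 kept UMIs in cOE and 27023873 in control these are 0.305 CPM of Cyp26a1 in cOE and 0.111 in control, and 0.0915 CPM of Crabp1 in cOE and 0.259 in control. Of the 10 cOE Cyp26a1 UMIs, 4 lay in cluster 0, in 2 nuclei, and 4 in cluster 17, in 4 nuclei. Neither gene was measured well enough for a comparison, and neither was detected in pillar and Deiters cells, where 3 counts would be 4.81 CPM in cOE nuclei and 6.36 CPM in control nuclei.

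Among the receptors, Rarb stood at 492 CPM in cOE (447 to 541) and 517 CPM in control (467 to 570) tympanic border cells, and at 400 CPM in cOE (379 to 422) and 465 CPM in control (442 to 490) mesenchyme. All macrophage-gated nuclei had 156 in cOE and 206 CPM in control. Roof epithelium had 154 in cOE and 164 CPM in control, hair cells 86.4 in cOE and 130 CPM in control, the Koelliker organ 66.9 in cOE and 98.4 CPM in control, pillar and Deiters cells 52.9 in cOE and 93.2 CPM in control and lateral epithelium 27.9 in cOE and 49.2 CPM in control. Background macrophages had 27.7 CPM in cOE nuclei and 58.2 CPM in control nuclei. The intervals of the lateral epithelium, the Koelliker organ and pillar and Deiters cells overlapped that background in both libraries, while those of hair cells and the roof epithelium lay above it in both. Thinned shares of nuclei with a Rarb UMI were 34.1% in cOE and 39.0% in control tympanic border cells, 7.07% in cOE and 9.16% in control hair cells, and 2.22% in cOE and 2.65% in control background macrophages.

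Rarb is a textbook target of retinoic acid through a repeat in its own promoter, and so is Cyp26a1. The 250 bases before the annotated starts of both genes are shown because both hold such a repeat while Rarb was widely detected and Cyp26a1 had 13 UMIs in all. The motif searched, on both strands, was a direct repeat of 2 units with any 5 bases between them. Each unit was AGGTCA, or the unit AGTTCA, or the unit GGGTCA, or the unit GGTTCA. The sequences are from RefSeq on GRCm38.p6, given 5′ to 3′ on the strand of the gene, with the repeat in capitals. The Rarb window is chr14:16575477-16575726 on the minus strand and the Cyp26a1 window chr19:37697558-37697807 on the plus strand.
Rarb: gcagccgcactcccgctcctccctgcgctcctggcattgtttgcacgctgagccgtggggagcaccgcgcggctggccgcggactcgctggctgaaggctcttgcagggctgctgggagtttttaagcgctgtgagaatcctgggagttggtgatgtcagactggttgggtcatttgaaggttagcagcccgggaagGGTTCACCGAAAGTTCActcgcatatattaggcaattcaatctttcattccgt
Cyp26a1: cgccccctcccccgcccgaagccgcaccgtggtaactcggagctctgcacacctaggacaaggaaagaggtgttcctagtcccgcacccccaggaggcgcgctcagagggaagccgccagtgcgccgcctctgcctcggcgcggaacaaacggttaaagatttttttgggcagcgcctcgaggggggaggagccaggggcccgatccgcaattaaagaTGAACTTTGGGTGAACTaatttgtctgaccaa

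In Rarb the repeat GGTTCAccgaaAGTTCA lay 53 to 37 bases before the start on the strand of the gene. In Cyp26a1 it was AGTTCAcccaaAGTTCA on the opposite strand, 32 to 16 bases before the start. Of 8 members with a window in the table, these 2 held the repeat, and of all 32851 windows 29 did, or 0.0883%. Both genes were known for such a repeat before the search, so the count of 2 is no test. Members are counted by gene and the share by window. The same units with 2 bases between them were found in none of the members' windows and in 0.174% of all windows. A match describes the letters only. Aldh1a1, Rara and Rarg had more than 1 window, and Aldh1a3 was not among those searched.

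Over the 27 clusters, with both libraries summed, log2(CPM + 10) of Rarb had a Pearson correlation of 0.62 with Aldh1a2 and of -0.54 with Cyp26b1. Aldh1a1 correlated with Rarg at 0.56. The clusters share libraries and depth, so these values are descriptions. In single nuclei thinned to 1000 UMIs, a Rarb UMI was found in 10.0% of cOE nuclei with Cyp26b1 and 22.9% of cOE nuclei without it. In control the shares were 13.4% of nuclei with Cyp26b1 and 27.1% of those without it. Without thinning the gap was small, at 35.8% of cOE nuclei with Cyp26b1 and 40.7% of those without, and at 45.2% of control nuclei with it and 46.0% of those without. Within the Koelliker organ the thinned shares went opposite ways, at 2.99% of cOE nuclei with Cyp26b1 and 5.96% of those without, from 4 nuclei with both, and at 11.3% of control nuclei with it and 7.73% of those without, from 8 nuclei with both. Nuclei with Aldh1a2 had Rarb in 29.4% of cases in cOE and 30.9% in control, against 21.6% in cOE and 26.2% in control among nuclei without Aldh1a2. Within mesenchyme the Aldh1a2 difference was not seen, at 27.6% of cOE nuclei with Aldh1a2 and 29.7% of those without, and at 35.1% of control nuclei with Aldh1a2 and 34.0% of those without.

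**Figure D2:**
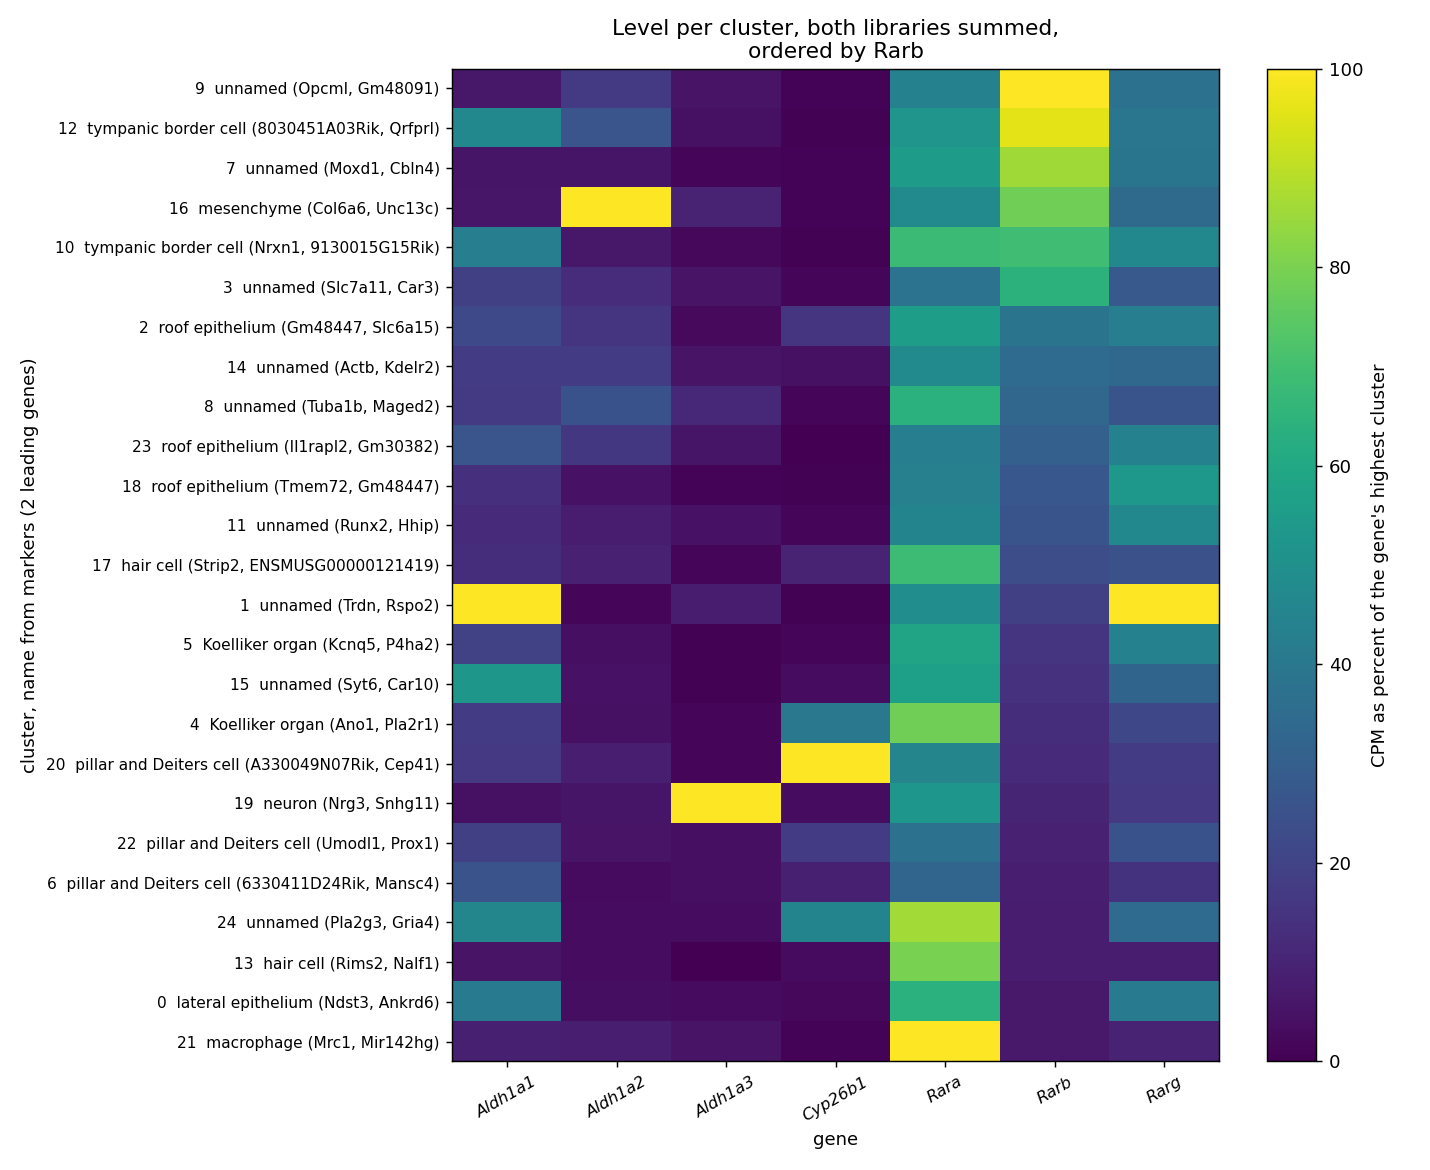
Level of the 7 measured genes in the 25 clusters of at least 50 nuclei, both libraries summed, as percent of the gene's highest cluster shown and ordered by Rarb from top to bottom. Rarb is high in clusters 9, 12, 7 and 16, Aldh1a2 peaks in cluster 16, Aldh1a1 and Rarg in cluster 1, Aldh1a3 in cluster 19, and Cyp26b1 in cluster 20 in the lower part of the map.

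Rarb was lower in cOE. Over all kept nuclei it stood at 245 CPM in cOE (240 to 251) and 315 CPM in control (308 to 321), from 8043 cOE and 8500 control UMIs, a log2 ratio of -0.36 (-0.40 to -0.32). The ratio within clusters, which compares the libraries inside each cluster and then pools the clusters, was -0.20. It leaves differences of make-up inside a cluster in place. The ratio over all kept nuclei was below 0 under all 11 alternatives run. Of the 25 clusters with at least 20 Rarb UMIs, the interval was below 0 in 8 and above 0 in 0. In the same 25 clusters 4.07% to 11.6% of all genes had an interval below 0, with a median of 5.90%.

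The Rarb ratio was uneven among epithelial nuclei. Roof epithelium, the class of most Rarb among them, gave -0.09 (-0.36 to 0.18). Cluster 18, with 652 of its 745 gated nuclei, gave -0.18 (-0.42 to 0.07). Cluster 2, deep nuclei with roof epithelium markers but only 46 of the gated nuclei, gave -0.44 (-0.63 to -0.26). Cluster 23 also had roof epithelium markers and stood at 182 CPM of Rarb with both libraries summed. Lateral epithelium-like cluster 0 gave -0.20 (-0.87 to 0.48) and Koelliker organ-like cluster 5 gave -0.29 (-0.85 to 0.29). In hair cells Rarb stood at 86.4 CPM in cOE (75.2 to 98.8) and 130 CPM in control (115 to 147), from 213 cOE and 264 control UMIs, a log2 ratio of -0.59 (-0.86 to -0.33). Outer hair cells gave 71.9 CPM in cOE nuclei and 125 CPM in control nuclei, and inner hair cells 93.7 in cOE and 189 CPM in control. Over the 12 alternatives the hair cell ratio ran between -0.91 and -0.57. The Koelliker organ and pillar and Deiters cells gave ratios below 0 at levels that overlapped the background, where Rarb itself had a log2 ratio of -1.07 (-2.93 to 0.54), and the part of background in them was not tested. The Koelliker organ gave -0.56 (-0.94 to -0.17), with -1.13 to -0.54 over the 12 alternatives, and its cluster 4 gave -0.93 (-1.22 to -0.64). Pillar and Deiters cells gave -0.82 (-1.51 to -0.13) from 33 cOE and 44 control UMIs, a value that turned to 0.26 on thinning. Cluster 20 gave 32.9 CPM in cOE nuclei and 136 CPM in control nuclei, a log2 ratio of -2.04 (-3.26 to -0.94).

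Where Rarb was high the ratios were near 0 or below it. Tympanic border cells gave -0.07 (-0.27 to 0.13), with 0.02 (-0.10 to 0.15) in their cluster 12 and -0.25 (-0.43 to -0.08) in their cluster 10. Mesenchyme gave -0.22 (-0.33 to -0.11), with -0.19 (-0.29 to -0.09) in cluster 16. Clusters 9 and 7, which carried no name, gave -0.01 (-0.11 to 0.09) in cluster 9 and -0.13 (-0.33 to 0.08) in cluster 7. The intervals of the hair cell and tympanic border cell ratios did not overlap, although the difference between the classes was not tested. Neurons had 103 CPM in cOE nuclei and 194 CPM in control nuclei from 39 cOE and 17 control UMIs (-0.92, -1.77 to -0.004), and the value turned to 0.22 under a stricter gate.

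Since Rarb is abundant in mesenchyme, markers of mesenchyme were read in the same epithelial nuclei. In hair cells the 13 mesenchyme markers summed to 705 CPM in cOE nuclei and 824 CPM in control nuclei, a log2 ratio of -0.23 (-0.32 to -0.13), and the 5 tympanic border cell markers to 245 in cOE and 288 CPM in control (-0.24, -0.40 to -0.07). In pillar and Deiters cells the mesenchyme list was at 564 in cOE and 669 CPM in control (-0.25, -0.47 to -0.02). In the Koelliker organ the mesenchyme list was at 744 CPM in cOE nuclei and 722 CPM in control nuclei (0.04, -0.09 to 0.17), and the tympanic border cell list was higher in cOE at 237 CPM, against 179 CPM in control (0.41, 0.16 to 0.66). The part of RNA from other cells in the Rarb values of these 3 classes was not tested.

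**Figure D3:**
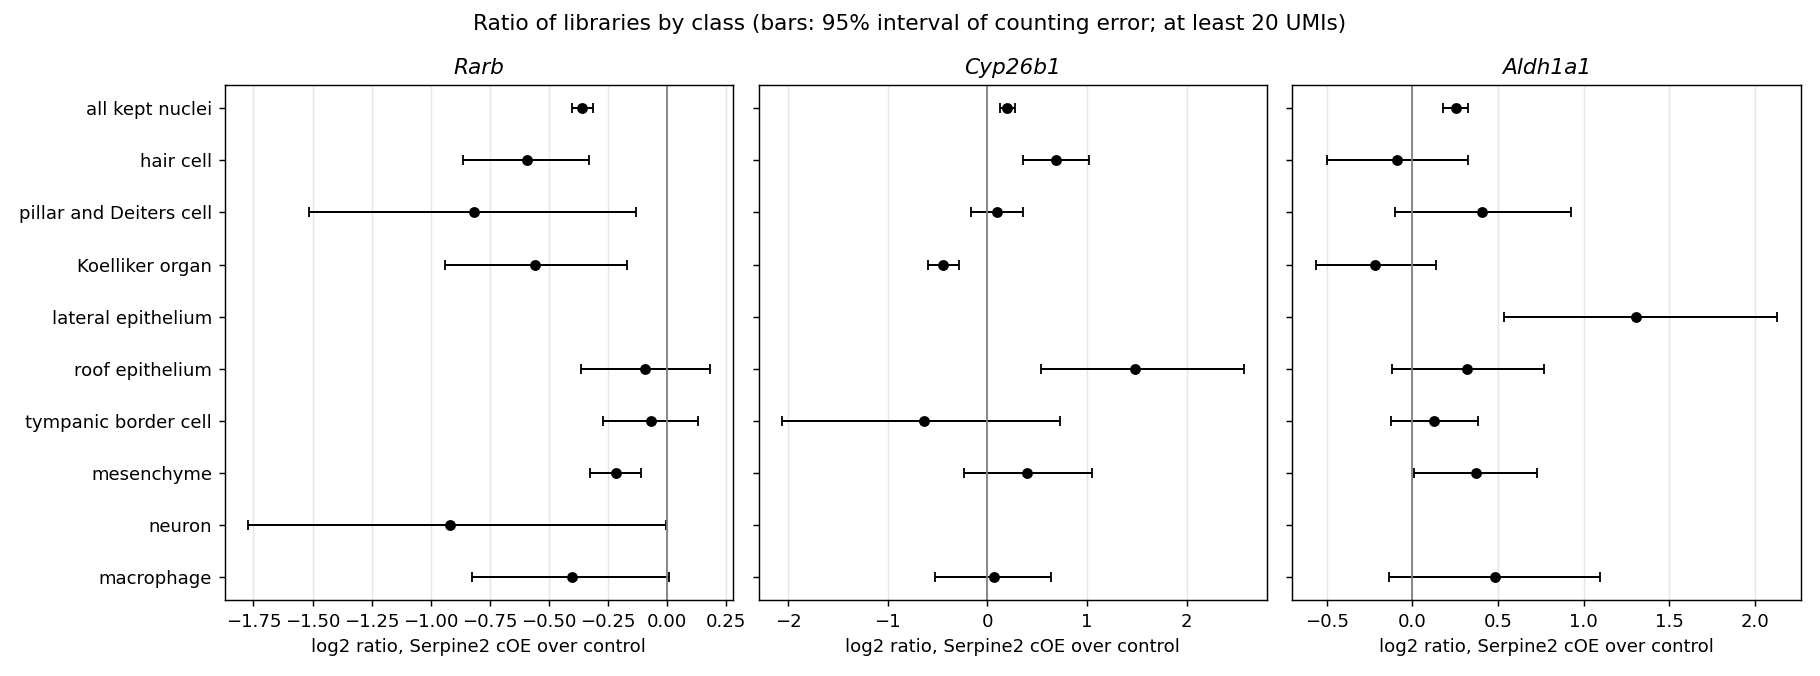
Log2 ratio of Serpine2 cOE over control for Rarb, Cyp26b1 and Aldh1a1 in all kept nuclei and in each class with at least 20 UMIs, with bars for the 95% interval of counting error. The Rarb ratio is below 0 in every class shown, at -0.07 in tympanic border cells and -0.59 in hair cells. The Rarb bars of tympanic border cells, roof epithelium and macrophages include 0. Cyp26b1 is at -0.44 in the Koelliker organ but at 0.68 in hair cells and 1.48 in the roof epithelium. Over other settings it ran between 0.09 and 1.18 in hair cells and between -0.12 and 1.60 in the roof epithelium. The -0.12 is from clusters that include deep cluster 2.

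With both libraries summed, Rarg had its highest gated class in the roof epithelium, at 70.6 CPM in cOE (59.3 to 83.4) and 62.0 CPM in control (48.2 to 78.4), a log2 ratio of 0.19 (-0.24 to 0.63). Tympanic border cells had 44.2 CPM in cOE nuclei and 80.8 CPM in control nuclei, the highest class in control alone, and the intervals of the classes overlapped in both libraries. Among clusters it peaked in cluster 1, the Otoa and Rspo2 cluster, at 123 CPM in cOE nuclei and 139 CPM in control nuclei, where Aldh1a1 peaked as well. Over all kept nuclei Rarg stood at 42.6 CPM in cOE nuclei and 47.8 CPM in control nuclei (-0.17, -0.28 to -0.06). In tympanic border cells the ratio was -0.87 (-1.49 to -0.27) from 39 cOE and 61 control UMIs. It ran between -1.53, under a stricter gate, and -0.36, by clusters, over the 12 alternatives, and cluster 10 gave -0.02 (-0.50 to 0.47). Hair cells gave -0.60 (-1.15 to -0.06), from 53 cOE and 66 control UMIs, and -0.86 to -0.16 over the 12 alternatives.

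Rara, in contrast, varied little between classes, with 19.1 to 47.3 CPM over the 9 classes in both libraries. Its highest class was macrophages, at 38.9 CPM in cOE (23.0 to 61.5) and 47.3 CPM in control (33.3 to 65.2), whose intervals overlapped those of the next classes. Hair cells had 38.1 in cOE and 33.1 CPM in control. Over all kept nuclei Rara was at 27.0 CPM in cOE nuclei and 28.6 CPM in control nuclei (-0.08, -0.22 to 0.06). Tympanic border cells were the 1 class with an interval below 0, at 22.7 in cOE and 42.4 CPM in control (-0.90, -1.78 to -0.05).

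Counted over the 9 genes, 7 had at least 20 UMIs in all kept nuclei. Aldh1a1, Aldh1a3 and Cyp26b1 had intervals above 0 and Rarb and Rarg below 0, where 21.8% of 20757 genes had an interval above 0 and 19.2% below. Aldh1a1 stood at 110 CPM in cOE nuclei and 92.3 CPM in control nuclei there (0.25, 0.18 to 0.33), with a ratio of 0.12 within clusters. Aldh1a2 stood at 86.1 in cOE and 82.4 CPM in control (0.06, -0.02 to 0.15), with a ratio of 0.23 within clusters. With counts this large such intervals are narrow, so a share of this size over all genes gives no ground to set the count of 5 of 7 apart.

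Within classes fewer genes had an interval off 0. Below 0 were 2 of 6 measured genes in hair cells (Rarb and Rarg), 2 of 6 in the Koelliker organ (Cyp26b1 and Rarb), 2 of 6 in tympanic border cells (Rara and Rarg), 1 of 6 in pillar and Deiters cells, 1 of 7 in mesenchyme and 1 of 2 in neurons, Rarb in each of the last 3. The share of all genes with an interval below 0 was 8.0% in hair cells, 5.79% in the Koelliker organ, 4.64% in tympanic border cells, 6.15% in pillar and Deiters cells, 8.91% in mesenchyme and 7.27% in neurons. Above 0 in mesenchyme were Aldh1a1, at 47.0 CPM in cOE nuclei and 36.4 CPM in control nuclei (0.37, 0.01 to 0.73), and Aldh1a2, where 9.77% of all genes were.

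The other genes of the pathway were read from a list of 52, of which 41 had at least 20 UMIs. In all kept nuclei 14 had an interval above 0, 11 below and 16 included 0, with a list median of 0.11 beside 0.0026 over all genes. Of all 20757 genes tested, 21.8% were above 0 and 19.2% below, as given before.

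Genes of retinol and retinal handling lay on both sides of 0, and the intervals of Rdh11, Rdh13, Dhrs3, Dhrs4 and Dhrs7 included 0. Rdh10, a retinol dehydrogenase known from embryos, stood at 19.9 CPM in cOE nuclei and 15.1 CPM in control nuclei (0.40, 0.22 to 0.58), Rdh14 at 35.0 in cOE and 27.3 CPM in control (0.36, 0.23 to 0.50) and Rdh12 at 31.1 in cOE and 26.4 CPM in control (0.24, 0.10 to 0.38). Adh5, an alcohol dehydrogenase, stood at 35.2 in cOE and 31.9 CPM in control (0.14, 0.01 to 0.27). Ttr, the carrier of thyroid hormone and of the retinol-binding protein in blood, stood at 89.1 in cOE and 47.3 CPM in control (0.91, 0.82 to 1.01). It was highest in the roof epithelium, at 403 CPM in cOE nuclei and 304 CPM in control nuclei, and in mesenchyme it was at 59.6 in cOE and 27.1 CPM in control. Roof epithelium markers in mesenchyme nuclei were at 186 in cOE and 123 CPM in control, and their part in that Ttr difference was not tested. In the other direction Rdh5, a retinol dehydrogenase known from the eye, stood at 20.3 CPM in cOE nuclei and 27.3 CPM in control nuclei (-0.42, -0.58 to -0.27), and Retsat, which saturates retinol, at 4.24 in cOE and 5.77 CPM in control (-0.45, -0.79 to -0.11).

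Crabp2, which carries retinoic acid to its receptors, stood at 23.8 CPM in cOE nuclei and 14.9 CPM in control nuclei (0.67, 0.50 to 0.85). It was higher in cOE in 16 of the 16 clusters with at least 20 UMIs. Its interval was above 0 in 7, where 3.87% to 11.4% of all genes had one over the 27 clusters. Fabp5, which can carry retinoic acid to Ppard, was at 88.8 in cOE and 101 CPM in control (-0.19, -0.26 to -0.11), and Ppard at 63.2 in cOE and 67.9 CPM in control (-0.10, -0.19 to -0.01). Rxra, a partner of the receptors, was at 12.0 CPM in cOE nuclei and 17.4 CPM in control nuclei (-0.54, -0.74 to -0.34). It was lower in cOE in 13 of 13 clusters, with an interval below 0 in 2. Over the 27 clusters 4.07% to 11.6% of all genes had an interval below 0. The clusters come from the same 2 libraries, so such counts are not replicates. Cyp1b1, a cytochrome that can also make retinoic acid, was at 16.4 in cOE and 20.0 CPM in control (-0.28, -0.46 to -0.11).

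Cofactors were among the genes of the list with most UMIs. Ncor1, a corepressor, stood at 383 CPM in cOE nuclei and 382 CPM in control nuclei (0.00, -0.04 to 0.04). The coactivators went both ways, with Ncoa1 at 284 in cOE and 249 CPM in control (0.19, 0.14 to 0.24), Ncoa2 at 278 in cOE and 303 CPM in control (-0.12, -0.17 to -0.08) and Ncoa3 at 79.5 in cOE and 84.9 CPM in control (-0.10, -0.18 to -0.01). Nrip1, a ligand-dependent corepressor, was at 116 in cOE and 108 CPM in control (0.11, 0.04 to 0.18).

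Known targets lay on both sides of 0. Higher in cOE was Rarres1 at 12.1 CPM, against 7.44 CPM in control (0.71, 0.46 to 0.96), as were Rarres2 at 20.4 in cOE and 17.9 CPM in control (0.19, 0.01 to 0.36), Zbtb16 at 101 in cOE and 88.1 CPM in control (0.20, 0.12 to 0.27), Meis1 at 202 in cOE and 178 CPM in control (0.19, 0.13 to 0.24) and Meis2 at 88.8 in cOE and 78.4 CPM in control (0.18, 0.10 to 0.26). Lower in cOE was Tgm2 at 9.12 CPM, against 12.0 CPM in control (-0.40, -0.63 to -0.17) and so was Tbx1, a T-box gene, at 75.5 in cOE and 92.2 CPM in control (-0.29, -0.37 to -0.21). Within clusters the ratios of Meis1 and Meis2 were 0.03 and 0.05. Also nearer 0 within clusters than pooled were Ncoa1 (0.07), Ncoa3 (0.002), Fabp5 (-0.09) and Cyp1b1 (-0.07). Ttr (0.84) and Rxra (-0.47) were slightly nearer 0 within clusters, while Crabp2 (0.79) and Rarres1 (0.75) were farther from 0. Rarres1 was highest in tympanic border cells, at 88.5 CPM in cOE nuclei and 43.7 CPM in control nuclei (1.02, 0.41 to 1.65).

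**Figure D4:**
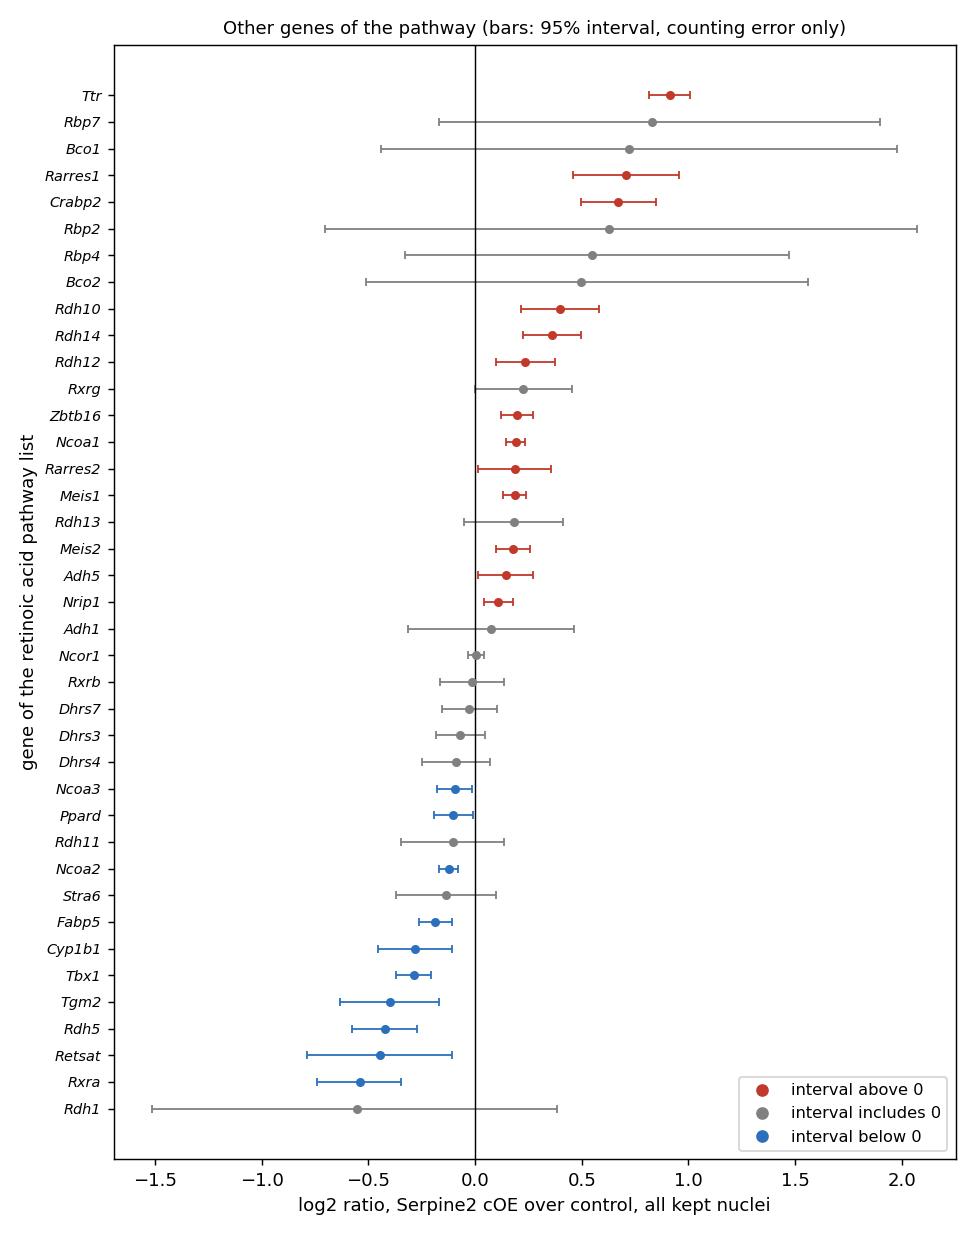
Log2 ratio of Serpine2 cOE over control in all kept nuclei for 39 of the 41 measured genes of the pathway list, with bars for the 95% interval of counting error, red where it lies above 0 and blue where it lies below. Ttr, Rarres1 and Crabp2 are the highest with intervals above 0 and Rxra, Retsat and Rdh5 the lowest with intervals below 0.

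The genes most like each member over the 27 clusters were named by the Pearson correlation of log2(CPM + 10) among genes with at least 100 UMIs. They were Gm44071 (0.93), Pip5k1b (0.91) and Adgra2 (0.89) for Rarb, and G6pdx (0.88), Fam83a (0.87) and Gm47629 (0.86) for Cyp26b1. For Aldh1a1 they were C730002L08Rik (0.88), Pi4k2b (0.72) and Tgfb2 (0.72), for Aldh1a2 1700057H15Rik (0.88), Grik1 (0.87) and Gpr83 (0.85), and for Aldh1a3 Iqsec3 (0.89) and D130009I18Rik (0.87). Rara was closest to Pts (0.86), Prkcd (0.83) and Caml (0.83), and Rarg to Nfix (0.80), Pik3ip1 (0.80) and Sobp (0.79).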

How the data were processed

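Nuclei of both libraries were counted per gene in files the authors deposited as counts, whole numbers of UMIs per gene and barcode, written with Cell Ranger 8.0.1 per the file headers. STAR is named in the submitters' processing notes. The build is GRCm39 per the series' design text and mm10 per the submitters' processing notes, and no count here was matched to coordinates. From these counts, nuclei with at least 500 genes and at most 5% mitochondrial UMIs were kept. Scrublet in scanpy 1.11.5 marked 0% as doublets by its automatic threshold, so the top 0.8% of scores per 1000 barcodes were removed per library, 1040 in cOE and 703 in control. Clusters came from 3000 variable genes, 50 principal components, 15 neighbours and Leiden resolution 1. They were made without the 9 members and the 52 other pathway genes, while Aldh1a7 was not left out.

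A cluster was named by at least 3 markers of a list, more than of any other, each in at least 10% of its nuclei and 2-fold above the rest, with 1 among its 10 leading genes, or by at least 6 markers where no listed marker led. Classes were gated as described, a rule chosen after seeing the data, since the marker lists alone were fixed. Summed UMIs were scaled to CPM with exact Poisson intervals, ratios had exact conditional intervals and shares Clopper-Pearson limits. Intervals and floors cover counting error only. No p-value was computed, since nuclei of 1 library are not replicates. The ratio interval was tested on simulated data. Thinning left out 436 cOE and 844 control nuclei. Scaling alternatives used TMM of edgeR 4.0.16 and size factors of DESeq2 1.42.0 in R 4.3.3. All 9 members are named, with pathway genes whose interval excluded 0 or that had most UMIs, and the 3 closest genes by cluster pattern, except a few genes that are not reported here but stay in the counts. The members and lists were chosen with earlier results of these data known.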

Additional observations from a re-analysis of the deposited data

Results flagged for a closer look

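The log2 ratio of cOE over control for Cyp26b1 pointed in opposite directions in different classes. It was 0.68 in hair cells and 1.48 in the roof epithelium, where the gene is low, and -0.44 in the Koelliker organ, where it is high. The 3 intervals excluded 0 on these sides. The hair cell value was 0.09 with each nucleus weighted equally and without nuclei of over 10000 UMIs, and 1.18 on thinning. Roof epithelium-like clusters gave -0.12, but they include cluster 2, deep nuclei with 46 of the 745 roof-gated nuclei. In the Koelliker organ the value stayed below 0, between -0.49 and -0.27. The difference between the classes was not tested, since each group was 1 library.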

How the results depend on the processing

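No paired analysis was possible because each group was 1 library. Chosen after seeing the data were the ratio within clusters, the limit of 10000 UMIs and leaving out the cluster led by Actb. Values are log2 ratios of cOE over control unless stated, and the cause of a change was not tested.

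Within clusters, all kept nuclei gave 0.12 for Aldh1a1, 0.23 for Aldh1a2, -0.20 for Rarb and, with the sign turned, -0.082 for Cyp26b1. Thinning gave 0.33 for Aldh1a1, 0.43 for Cyp26b1 and -0.29 for Rarb. With each nucleus weighted equally Cyp26b1 was 0.42 and Rarb -0.27, and without nuclei of over 10000 UMIs Cyp26b1 was 0.43. The sign turned for Rarb in pillar and Deiters cells on thinning (0.26) and in neurons with a stricter gate (0.22). For Cyp26b1 in the roof epithelium it turned by clusters (-0.12), a setting that takes in deep cluster 2. Cyp26b1 in hair cells gave 0.09 with each nucleus weighted equally and without nuclei of over 10000 UMIs, 0.26 by clusters and 1.18 on thinning. Aldh1a1 in tympanic border cells gave -0.28 with a stricter gate and Aldh1a2 in mesenchyme 0.016 on thinning. Cyp26b1 in pillar and Deiters cells gave -0.22 with at least 1000 genes, -0.40 on thinning, -0.24 by clusters and 0.55 without nuclei of over 10000 UMIs.

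Levels over both libraries moved for Aldh1a1 in tympanic border cells to 370 CPM on thinning, 234 by clusters and 356 with a stricter gate, and for Aldh1a2 in mesenchyme to 229, 386 and 260.1 CPM. Aldh1a3 in neurons moved to 126 CPM by clusters, and Cyp26b1 in pillar and Deiters cells to 427 on thinning, 531 by clusters, 528 with a stricter gate and 527 without nuclei of over 10000 UMIs. Pathway genes below 0 numbered 5 on thinning, against 11.

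Without thinning, shares of cOE and control nuclei with a UMI were 42.8% and 43.4% for Aldh1a1 in tympanic border cells, 29.9% and 27.9% for Aldh1a2 in mesenchyme, 55.3% and 57.1% for Aldh1a3 in neurons, 45.0% and 45.9% for Cyp26b1 in pillar and Deiters cells, 12.96% and 17.9% for Rara in macrophages, 59.2% and 62.6% for Rarb in tympanic border cells, and 25.0% and 21.1% for Rarg in the roof epithelium. Unthinned, Cyp26b1 was in 9.78% of cOE and 9.09% of control nuclei with Aldh1a2, and Rarb in 54.4% and 58.1% of mesenchyme nuclei with Aldh1a2 and 35.8% and 45.2% of nuclei with Cyp26b1, against 40.7% of cOE and 46.0% of control nuclei without Cyp26b1.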
